A study of Homo sapiens with 24 samples.

Results

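Transcripts of 32 genes of cholesterol and fatty acid synthesis were followed in human HCT116 cells, a colorectal carcinoma line, through 4 days of auxin. The genes are a written list of enzymes, regulators and 1 carrier, and each symbol matched 1 of the 58735 Ensembl genes in the count tables. They fall into 7 genes of the mevalonate arm, 11 of the squalene and sterol arm, 5 regulators of the SREBP transcription factors, 1 sterol carrier and 8 lipogenic genes. All 32 passed the filter on low counts in all 13 comparisons, and the lowest count of any of them in a library was 91.

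RNA was sequenced from 4 lines at day 0 and day 4, with 3 libraries in each of the 8 groups. All 4 lines carry OsTIR1, the plant receptor that auxin needs for degradation, under a tetracycline-inducible promoter. WT cells carry no degron tag. In UHRF1-AID cells the auxin-inducible degron (AID) is at the C-terminus of UHRF1, in DNMT1-AID cells at the N-terminus of DNMT1, and the UHRF1-AID/DNMT1-AID line carries both and is called the compound line here. The tagged lines are single-cell clones, the study made 3 clones of each, and the labels do not say which clone gave which library. Day 0 libraries were made before auxin. For day 4, cells of every line, WT included, had 1 day of 2 µg/mL doxycycline with auxinole, an inhibitor of OsTIR1, and then doxycycline with 500 µM auxin. A difference between day 4 and day 0 thus holds auxin, added or longer doxycycline and time in culture together. The labels do not say whether day 0 cells had doxycycline. The tagged lines differ from WT by the tag and, after auxin, by the loss of the tagged protein.

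Cholesterol is built from acetyl-CoA through mevalonate, isoprenoids and squalene to lanosterol, which a chain of further enzymes turns into cholesterol. The pathway is switched on by SREBP proteins, which SCAP escorts to the Golgi for cleavage when membrane sterol is low, while the INSIG proteins hold SCAP in the endoplasmic reticulum when sterol is high. SREBF2 favours the sterol genes and SREBF1 the fatty acid genes, and liver X receptors (LXR), which sense oxysterols, drive SREBF1 and the genes of cholesterol efflux.

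SREBP proteins bind sterol regulatory elements together with NF-Y at CCAAT boxes, so the stretches upstream of the transcription start were searched for both motifs on both strands. RefSeq promoter sequences (GRCh38.p14) were matched for 28 of the 32 genes. ACAT2, FDFT1, SQLE and FASN were not matched. The letters TCACNCCAC stood in 1 of the 28 promoters, that of SREBF2, and in 1.15% of all 27305 promoters of the same length. CCAAT stood in 17 of the 28, or 60.7%, and in 35.7% of all promoters. It was found in 8 of the 9 promoters of the squalene and sterol arm, in 4 of 6 of the mevalonate arm and in 2 of 7 of the lipogenic genes. A match of letters is a description and does not show that a factor binds there. The first line shows the element upstream of SREBF2 in capitals, with a CCAAT on the other strand near its end in lower case. The next 2 are from genes that rose in every line. The last 2 are from INSIG1, lower than WT at day 4 in all tagged lines, and SCD, lower in UHRF1-AID and compound cells. CCAAT or its reverse complement, ATTGG, is in capitals.
SREBF2, chr22:41832947-41833005, + strand: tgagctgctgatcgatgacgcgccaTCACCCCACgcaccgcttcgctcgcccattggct
TM7SF2, chr11:65111770-65111830, + strand: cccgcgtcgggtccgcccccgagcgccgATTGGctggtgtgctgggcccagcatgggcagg
MSMO1, chr4:165327502-165327562, + strand: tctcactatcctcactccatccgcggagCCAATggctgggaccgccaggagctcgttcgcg
INSIG1, chr7:155297680-155297740, + strand: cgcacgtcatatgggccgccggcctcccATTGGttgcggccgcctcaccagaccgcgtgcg
SCD, chr10:100347019-100347079, + strand: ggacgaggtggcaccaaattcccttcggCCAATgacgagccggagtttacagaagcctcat

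The libraries held 15824804 to 25073821 counts on genes. The table headers place 15 libraries, all of day 0 and UHRF1-AID at day 4, in 1 alignment folder and the other 9 in another, and those 9 alone hold spike-in counts. In WT, DNMT1-AID and compound cells the day therefore cannot be told apart from the folder, and neither can the line in UHRF1-AID against WT at day 4, nor the difference between the day effects of UHRF1-AID and WT cells. The other comparisons of 2 groups lie within 1 folder. Summed over 5 epithelial markers the libraries held 3937 to 8157 CPM, against at most 20.2 CPM over 5 fibroblast markers, 3.07 CPM over 4 leukocyte markers and less over the hepatocyte, adipocyte and endothelial lists. The tag acts on protein, so the transcript does not check the depletion. UHRF1 fell from 89.2, 81.4 and 50.5 CPM to 17.5, 24.3 and 33.7 CPM in the 3 WT libraries (log2 -1.54 ± 0.32 (SE), adjusted p = 0.0106), DNMT1 also fell there (log2 -2.20), and neither transcript differed from WT by the test in the line that carries its tag alone. That does not show equal levels. At day 0 UHRF1 stood at 166, 148 and 197 CPM in UHRF1-AID cells, above every WT library. DNMT1 stood at 29.0, 31.1 and 74.0 CPM in DNMT1-AID cells at day 0, below the 171, 180 and 76.9 CPM of WT. In compound cells at day 4 DNMT1 was lower than in WT (log2 -1.32 ± 0.33 (SE), adjusted p = 0.0262). CPM are counts relative to library size, scaled by TMM over all 24 libraries, and a gene is said to rise or fall where its adjusted p in edgeR's quasi-likelihood test is under 0.05. In bulk RNA, fewer cells of a kind and less RNA per cell cannot be told apart.

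Per kilobase of exon the set spans a wide range of levels. In WT cells at day 0 SCD, the stearoyl-CoA desaturase, stood at 336 CPM per kb, followed by the citrate lyase ACLY at 68.2 and the fatty acid synthase FASN at 48.4. AACS, which activates acetoacetate, was lowest at 1.20 CPM per kb, below the desaturase FADS2 at 1.63. DHCR7 led the sterol arm at 35.6 CPM per kb and PMVK the mevalonate arm at 31.3.

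Day 4 was first compared with day 0 within each line, which asks how the pathway moved during auxin with and without loss of the tagged protein. Several genes of sterol synthesis rose and most lipogenic genes fell in all 4 lines, WT included. Of the 11 genes of the squalene and sterol arm 5, 5, 4 and 6 rose and 1, 1, 2 and 1 fell in WT, UHRF1-AID, DNMT1-AID and compound cells. Of the 8 lipogenic genes 1 rose in each line and 5, 7, 5 and 6 fell, in that order. Of the 7 mevalonate genes 2, 0, 0 and 2 rose and 0, 2, 2 and 3 fell, and of the 5 regulators 0, 1, 1 and 1 rose and 1, 2, 1 and 3 fell. FDFT1, TM7SF2, MSMO1, SC5D and AACS rose in every line, and SQLE, ACLY, ACACA, ELOVL6, FADS1 and FADS2 fell in every line, 5 and 6 of the 32 genes. Without WT replicate 1 of day 0 these were 2 and 4 genes, without WT replicate 1 of day 4 they were 3 and 3, and without WT replicate 2 of day 0 they were 3 and 5. Without DNMT1-AID replicate 1, 2 or 3 of day 4 they were 2 and 5, 3 and 6, or 2 and 4. TM7SF2, MSMO1 and FADS1 passed in every line whichever 1 library was left out. In WT cells FDFT1 passed in 1, SQLE and ACACA in 2 and SC5D in 3 of the 6 leave-one-out fits, which each drop 1 library. Another 19 passed in 1 to 3 lines, 2 (NSDHL and DHCR7) in no line, and 0 rose in 1 line and fell in another. Shares of all genes were not computed for these counts over the 4 lines, those of 5 and 6 genes included. The counts over the 4 lines thus do not set the list apart from all genes. In WT cells 9 rose and 7 fell, against 17.7% and 17.8% of all 13601 genes tested. In UHRF1-AID cells 7 rose and 12 fell, against 26.5% and 22.9% of all genes, and with the replicate number as a block, since libraries with the same number deviated together in this line, 9 rose and 13 fell. In DNMT1-AID cells 6 rose and 10 fell, against 19.5% and 20.8% of all genes. In compound cells 11 rose and 13 fell, against 35.2% and 32.5%. The median log2 change of the 32 genes lay between -0.14 and 0.04 in the 4 lines, and that of all genes between -0.03 and 0.02. At the study's threshold, which also asks for an absolute log2 change over 1, 1, 3, 3 and 7 genes passed in the 4 lines in the order above, against 11.9%, 21.9%, 15.3% and 26.6% of all genes. Without replicate 1 of WT at day 0 or at day 4, 9 genes passed in WT cells, and up to 21 without another library. Without UHRF1-AID replicate 3 of day 0, 12 passed in that line, and without DNMT1-AID replicate 3 of day 4, 10 passed in that line. Of the 16, 19, 16 and 24 calls in the 4 lines, 8, 11, 10 and 22 held whichever 1 library was left out.

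**Figure D1:**
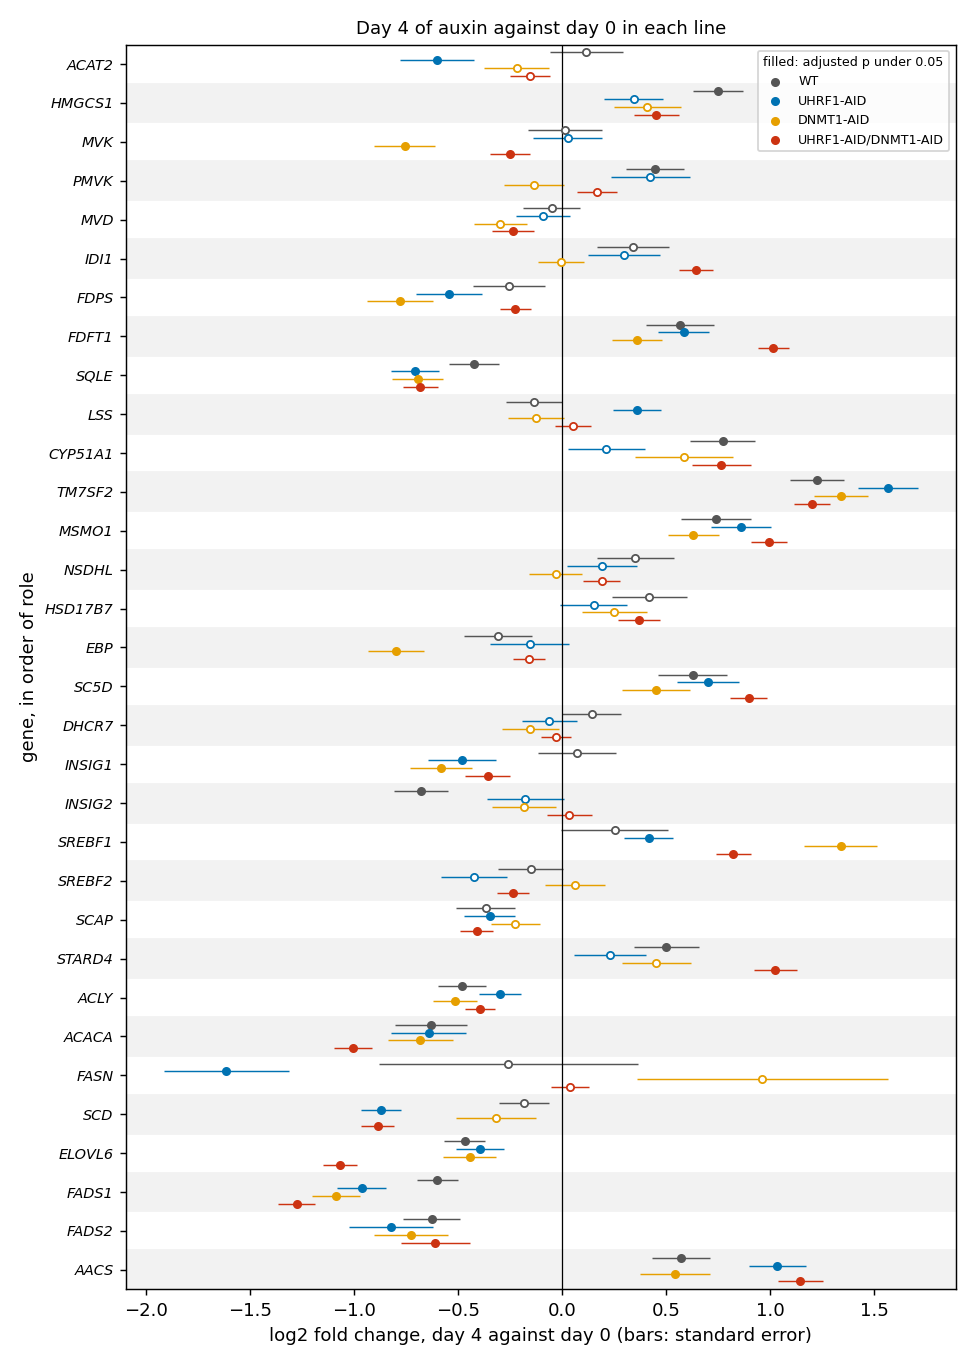
Log2 fold change of each of the 32 genes between day 4 and day 0 in the 4 lines, with genes ordered by role from top to bottom and the compound line labelled by both its tags. Points are fitted values, bars are standard errors, and filled points passed at an adjusted p under 0.05. TM7SF2 lay between 1.20 and 1.57 in the 4 lines, while FADS1 lay between -1.28 and -0.60.

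TM7SF2, a sterol reductase of the step after lanosterol demethylation, showed the greatest rise of the set in WT and UHRF1-AID cells. It stood at 55.2, 63.1 and 74.7 CPM in WT cells at day 0 and at 157, 158 and 135 CPM at day 4 (log2 1.23 ± 0.13 (SE), adjusted p = 0.000296). In UHRF1-AID cells it went from 52.5, 67.6 and 52.8 CPM to 176, 181 and 147 CPM (log2 1.57 ± 0.14 (SE), adjusted p = 4.97e-05). Every day 4 library lay above every day 0 library. The change was 1.34 ± 0.13 (SE) in DNMT1-AID cells and 1.20 ± 0.09 (SE) in compound cells on the log2 scale. TM7SF2 lies at chr11:65111845-65116384 (hg38) on the + strand.

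MSMO1, SC5D and FDFT1 also rose in every line, with smaller folds. MSMO1, the methylsterol monooxygenase, rose by 0.74, 0.86, 0.63 and 1.00 on the log2 scale in WT, UHRF1-AID, DNMT1-AID and compound cells. SC5D, the sterol C5 desaturase, rose by 0.63, 0.70, 0.45 and 0.90 in the same order. FDFT1, the squalene synthase at the entry to the arm, went from 107, 123 and 125 CPM to 239, 226 and 232 CPM in compound cells (log2 1.02 ± 0.07 (SE), adjusted p = 1.54e-09). In the other lines FDFT1 rose by 0.36 to 0.59. CYP51A1, the lanosterol demethylase, rose in WT cells from 15.3, 14.8 and 18.1 CPM to 23, 31.2 and 27.7 CPM (log2 0.77 ± 0.16 (SE), adjusted p = 0.00593) and in compound cells (log2 0.77), and in UHRF1-AID cells its change was 0.21 ± 0.18 (SE) and did not pass. CYP51A1 shares 83.2% of its exon bases with other annotated genes, most of them on the same strand, so its counts are uncertain.

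The remaining genes of the arm moved in both directions or did not pass. SQLE, the squalene epoxidase that commits squalene to sterols, fell, with log2 changes of -0.42, -0.71, -0.69 and -0.68 in WT, UHRF1-AID, DNMT1-AID and compound cells. EBP, the sterol isomerase, passed in 1 line, falling in DNMT1-AID cells from 107, 102 and 80.8 CPM to 59.7, 51.4 and 52.9 CPM (log2 -0.80 ± 0.13 (SE), adjusted p = 0.00109). LSS, the lanosterol synthase, rose in UHRF1-AID cells (log2 0.36 ± 0.12 (SE), adjusted p = 0.0266) and HSD17B7, a sterol ketoreductase, in compound cells (log2 0.37 ± 0.10 (SE), adjusted p = 0.00359). The LSS call passed in 2 of 6 leave-one-out fits. NSDHL, of the demethylation complex, and DHCR7, the final reductase of 1 branch, lay between -0.15 and 0.35 in the 4 lines and did not pass.

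The mevalonate arm moved less evenly. HMGCS1, the HMG-CoA synthase, rose in WT cells from 31, 27 and 29.3 CPM to 52.7, 51 and 43 CPM (log2 0.75 ± 0.12 (SE), adjusted p = 0.00198) and in compound cells (log2 0.45 ± 0.11 (SE), adjusted p = 0.00115). Its changes in UHRF1-AID and DNMT1-AID cells were 0.34 ± 0.14 (SE) and 0.41 ± 0.16 (SE). FDPS, the farnesyl diphosphate synthase, fell in the 3 tagged lines, with log2 changes of -0.54, -0.78 and -0.22 in the order UHRF1-AID, DNMT1-AID and compound, and its change in WT cells was -0.26 ± 0.17 (SE). MVK, the mevalonate kinase, fell in DNMT1-AID (log2 -0.76) and compound cells (log2 -0.25). In single lines PMVK rose in WT cells (log2 0.45 ± 0.14 (SE), adjusted p = 0.0338), IDI1, the isopentenyl isomerase, in compound cells (log2 0.65), ACAT2, the cytosolic thiolase, fell in UHRF1-AID cells (log2 -0.60 ± 0.18 (SE), adjusted p = 0.0189), and the decarboxylase MVD in compound cells (log2 -0.24 ± 0.10 (SE), adjusted p = 0.0471). The MVD and MVK calls in compound cells each passed in 3 of 6 leave-one-out fits. They passed in 3 and 5 of the 8 other alternatives. The PMVK call in WT cells passed in 2 of 6 leave-one-out fits. It was lost with the replicate number as a block and with an offset for GC content. ACAT2 shares 52.3% of its exon bases with genes on the other strand, and whether counting used strand is not stated. STARD4, a carrier that moves cholesterol between membranes, rose in WT (log2 0.50 ± 0.16 (SE), adjusted p = 0.0351) and compound cells (log2 1.03 ± 0.10 (SE), adjusted p = 1.25e-07). The STARD4 call in WT cells passed in 1 of 6 leave-one-out fits.

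Most lipogenic genes fell. ACACA, the acetyl-CoA carboxylase of the committed step, fell, with log2 changes of -0.63, -0.64, -0.68 and -1.004 in WT, UHRF1-AID, DNMT1-AID and compound cells. ACLY, which supplies its acetyl-CoA, fell, with log2 changes of -0.48, -0.30, -0.51 and -0.39. FADS2, the Δ6 desaturase, fell, with log2 changes of -0.63, -0.82, -0.72 and -0.61. AACS, which uses acetoacetate for lipid synthesis in the cytosol, was the 1 lipogenic gene that rose. It stood at 19.1, 18.9 and 19.6 CPM in UHRF1-AID cells at day 0 and at 34.8, 43.4 and 38 CPM at day 4 (log2 1.04 ± 0.14 (SE), adjusted p = 0.00031), and rose by 0.57, 0.54 and 1.15 in WT, DNMT1-AID and compound cells. Across all genes the rank correlation of library deviations with exon length also moved with the day, from between 0.0394 and 0.0766 at day 0 to between -0.174 and -0.145 at day 4 in compound cells, and from 0.235, 0.232 and -0.139 to -0.135, -0.0435 and 0.0368 in WT cells. ACACA, FADS1 and FADS2 have 13008, 10230 and 11026 exon bases and AACS, which rose, has 16094. With an offset for gene length, ACACA and FADS2 changed by -0.36 and -0.42 and AACS by 0.86 in WT cells. ACLY, ACACA, ELOVL6, FADS1 and FADS2 still fell past the test in all 4 lines with that offset, and the AACS rise did not pass in DNMT1-AID cells (log2 0.51, adjusted p = 0.113). With an offset for GC content instead, added after seeing the data, the ELOVL6 fall in DNMT1-AID cells did not pass.

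FADS1, the Δ5 desaturase of polyunsaturated fatty acids, had the smallest p of the fatty acid genes in 3 of the 4 lines. It stood at 106, 107 and 113 CPM in WT cells at day 0 and at 71.6, 77 and 66 CPM at day 4 (log2 -0.60 ± 0.10 (SE), adjusted p = 0.00237). UHRF1-AID cells went from 113, 106 and 122 CPM to 53.9, 52.9 and 65.3 CPM (log2 -0.96 ± 0.12 (SE), adjusted p = 0.000226). DNMT1-AID cells went from 103, 118 and 101 CPM to 51, 51.6 and 46.4 CPM (log2 -1.09 ± 0.12 (SE), adjusted p = 7.2e-05). The day 4 libraries of each line lay below all day 0 libraries. In compound cells FADS1 went from 106, 94.9 and 112 CPM to 39.3, 41.1 and 45.5 CPM (log2 -1.28 ± 0.09 (SE), adjusted p = 7.64e-10), and those day 4 values were below those of each other line. FADS1 (chr11:61799625-61829318, - strand) and FADS2 (chr11:61792980-61867354, + strand) overlap on opposite strands and share 5.57% and 4.89% of their exon bases with other genes.

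ELOVL6, the elongase that makes stearate from palmitate, fell from 64.2, 61.3 and 62.5 CPM to 47.4, 44.7 and 43.6 CPM in WT cells (log2 -0.47 ± 0.10 (SE), adjusted p = 0.00683). In compound cells it fell from 51.5, 53.9 and 50.4 CPM to 24, 25.1 and 23.2 CPM (log2 -1.07 ± 0.08 (SE), adjusted p = 3.32e-09). The day 4 libraries of that line lay below every other library of the series, and the change in UHRF1-AID and DNMT1-AID cells was -0.39 and -0.44.

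SCD makes oleate from stearate and was the most abundant transcript of the set in WT cells at day 0. In WT cells it stood at 1872, 1731 and 1796 CPM at day 0 and at 1541, 1718 and 1489 CPM at day 4 (log2 -0.18 ± 0.12 (SE), adjusted p = 0.266), a change that did not pass. UHRF1-AID cells fell from 1591, 1496 and 1802 CPM to 879, 871 and 879.9 CPM (log2 -0.87 ± 0.10 (SE), adjusted p = 0.000128). Compound cells began lower, at 1187, 1122 and 1044 CPM, and fell to 594, 586 and 583 CPM (log2 -0.88 ± 0.08 (SE), adjusted p = 1.97e-08). Both lines had day 4 values close together and well below their day 0 values. DNMT1-AID cells stood at 1341, 1881 and 1329 CPM and then at 1260.4, 1434 and 909 CPM (log2 -0.32 ± 0.19 (SE), adjusted p = 0.215), with the days overlapping. SCD lies at chr10:100347124-100364834 on the + strand.

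**Figure D2:**
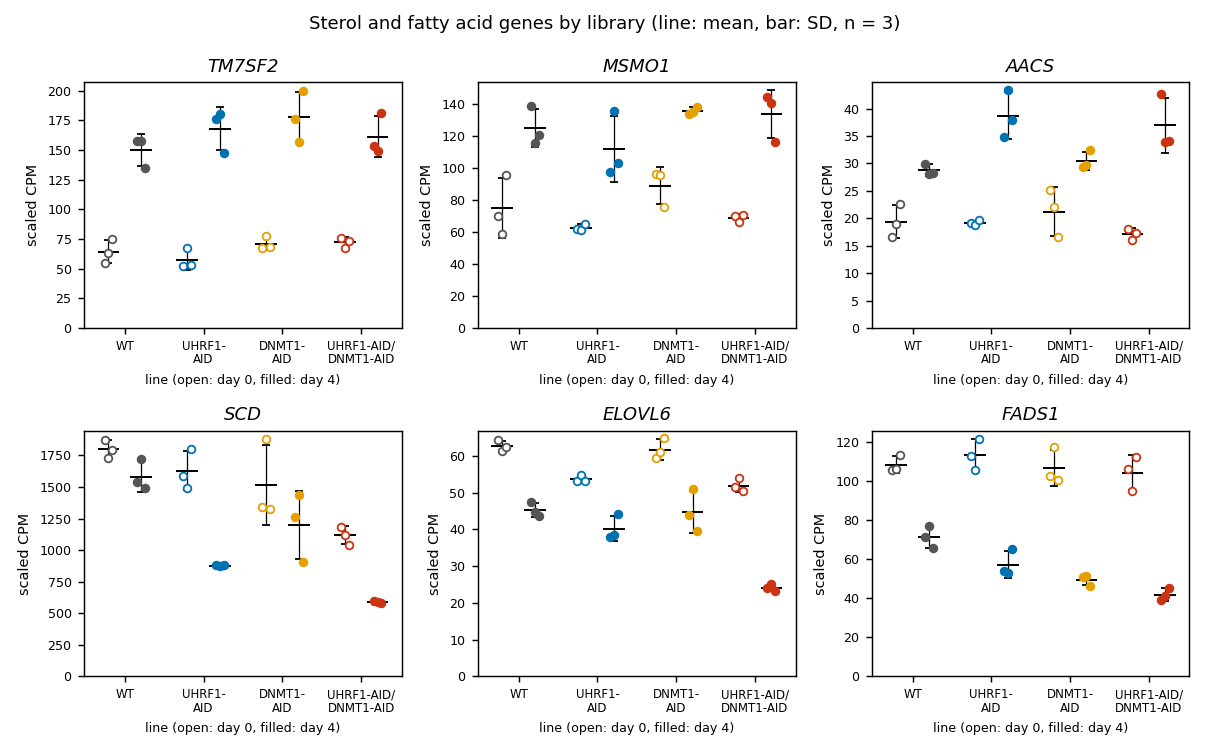
Scaled CPM of 3 genes that rose (top) and 3 fatty acid genes (bottom) in each library of the 4 lines, at day 0 (open) and day 4 (filled), with the mean and SD of 3 libraries. SCD at day 4 lay between 583 and 594 CPM in compound cells, between 871 and 880 CPM in UHRF1-AID cells and between 1489 and 1718 CPM in WT cells.

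The regulators were described library by library. SREBF1, the SREBP of fatty acid genes, stood at 287, 302 and 180.5 CPM in WT cells at day 0 and at 245, 279 and 391 CPM at day 4 (log2 0.25 ± 0.26 (SE), adjusted p = 0.472). UHRF1-AID cells went from 269, 242 and 282 to 379, 297 and 367 CPM (log2 0.42 ± 0.12 (SE), adjusted p = 0.0153). DNMT1-AID cells went from 162, 197 and 243 to 493, 594 and 419 CPM (log2 1.34 ± 0.18 (SE), adjusted p = 0.000257). Its rise passed in the 3 tagged lines, without overlap of the days, while the WT libraries overlapped. The UHRF1-AID call was lost in 1 fit of all libraries and passed in 4 of 6 leave-one-out fits. In DNMT1-AID cells the rise passed in every alternative, with log2 changes down to 1.03. The longest SREBF1 transcript has 63.2% GC. Across all genes, counts ran lower with GC content in the day 0 libraries at 180.5 (WT), 162 and 197 CPM (DNMT1-AID). An offset for GC content, added after seeing the data, was among the alternatives in which the DNMT1-AID rise passed. How much of each library value goes with the GC trend was not tested. Compound cells went from 257, 245 and 218 to 451, 409 and 376 CPM (log2 0.82 ± 0.08 (SE), adjusted p = 1.23e-07). The transcript of SREBF1 thus rose in lines in which ACACA, ACLY, ELOVL6 and the FADS genes fell.

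SREBF2, the SREBP of sterol genes, stood at 214, 203 and 155 CPM in WT cells at day 0 and at 149, 182 and 183 CPM at day 4. UHRF1-AID cells had 203.6, 175 and 223 and then 160.1, 111 and 169.6 CPM, and DNMT1-AID cells 126, 155 and 183 and then 162, 168 and 148 CPM. None of these 3 changes passed, with adjusted p of 0.481, 0.0504 and 0.747, the one in UHRF1-AID cells just above the threshold (log2 -0.42 ± 0.16 (SE)). Compound cells fell from 161, 153 and 150.1 to 135, 116 and 132 CPM (log2 -0.24 ± 0.08 (SE), adjusted p = 0.0119). SCAP, the escort, fell in UHRF1-AID (log2 -0.35) and compound cells (log2 -0.41), and its changes in WT and DNMT1-AID cells were -0.37 ± 0.14 (SE) and -0.22 ± 0.12 (SE). The SCAP call in UHRF1-AID cells passed in 1 of 6 leave-one-out fits.

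The INSIG proteins hold the SREBP precursors back in the endoplasmic reticulum. INSIG1, itself a target of SREBP, stood at 57.7, 40.0 and 71.2 CPM in WT cells at day 0 and at 64.5, 59.9 and 52.6 CPM at day 4 (log2 0.07 ± 0.19 (SE), adjusted p = 0.791). UHRF1-AID cells fell from 44.6, 50.9 and 61 to 32.9, 44 and 33 CPM (log2 -0.48 ± 0.16 (SE), adjusted p = 0.0339), a call that passed in 2 of 6 leave-one-out fits. DNMT1-AID cells fell from 63.9, 59.8 and 56.8 to 39.7, 47.3 and 32.1 CPM (log2 -0.58 ± 0.15 (SE), adjusted p = 0.0104). In both lines the day 4 values lay below the day 0 values. Compound cells fell from 52.9, 50.6 and 43.2 to 43.7, 34.1 and 33.4 CPM (log2 -0.36 ± 0.11 (SE), adjusted p = 0.00855), with 1 library of each day overlapping. INSIG2, its paralogue, fell in WT cells from 31.6, 36.1 and 41.6 to 23.7, 22.9 and 21.5 CPM (log2 -0.68 ± 0.13 (SE), adjusted p = 0.00463). In the tagged lines INSIG2 changed by -0.18, -0.18 and 0.04 and did not pass, with 27.5, 27.3 and 22.4 CPM and then 27.3, 26.8 and 22.8 CPM in compound cells.

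FASN, which makes palmitate, varied widely between libraries of the same group. WT cells at day 0 had 649, 541 and 170.4 CPM and at day 4 259, 243 and 629 CPM. DNMT1-AID cells had 208, 189.6 and 695 CPM at day 0 and 653, 911 and 545 CPM at day 4. In both WT groups and in DNMT1-AID cells at day 0, 1 library lay far from the rest of its group. FASN has the highest GC content of the set, at 65.3% of its longest transcript. The 3 day 0 libraries of WT and DNMT1-AID cells with low FASN were WT replicate 3 and DNMT1-AID replicates 1 and 2, and across all genes their counts ran lower with GC content (Spearman's rho -0.285, -0.23 and -0.319), while rho was between -0.149 and 0.248 in the other 21. In WT replicates 1 and 2 of day 4, also low in FASN, rho was -0.149 and -0.00573. Fits with an offset for GC content were made for every comparison, and for FASN only the one in UHRF1-AID cells is given below. How much of each FASN value goes with the GC trend was not tested. In UHRF1-AID cells, whose libraries all lie in 1 folder, FASN fell from 535, 655 and 629 CPM to 198, 106 and 283 CPM (log2 -1.61 ± 0.30 (SE), adjusted p = 0.00267). There rho lay between -0.07 and 0.06 on both days. With an offset for GC content, added after seeing the data, the change was -1.62 (adjusted p = 0.00103). The cause of the fall was not tested. FASN in UHRF1-AID cells did not pass against WT at day 4, nor in the day effect minus that of WT. The WT libraries of day 4 at 259 and 243 CPM lay within the UHRF1-AID range of that day. Compound cells had 597, 636 and 634 CPM and then 566, 568 and 727 CPM (log2 0.04 ± 0.09 (SE), adjusted p = 0.718).

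**Figure D3:**
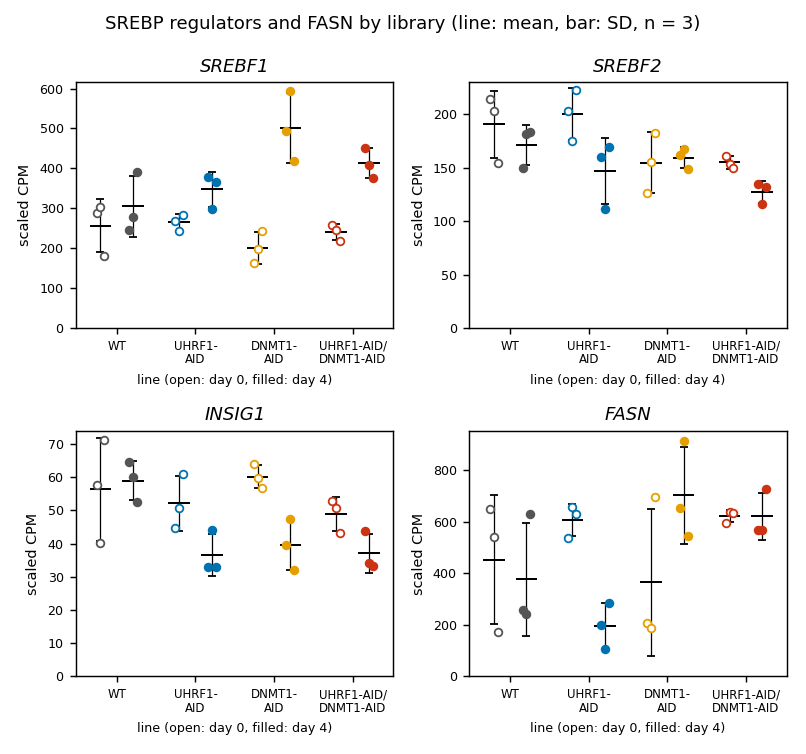
Scaled CPM of SREBF1, SREBF2, INSIG1 and FASN in each library of the 4 lines, at day 0 (open) and day 4 (filled), with the mean and SD of 3 libraries. FASN lay between 170 and 649 CPM within WT day 0 alone, and between 106 and 283 CPM in all 3 UHRF1-AID libraries of day 4.

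The lines were next compared with WT before auxin, which asks whether the tags alone moved the pathway. UHRF1-AID cells differed from WT in 0 of the 32 genes, against 0% of all genes in either direction and at the study's threshold (0%), and 0 had an unadjusted p under 0.05. DNMT1-AID cells also differed in 0, against 0% higher, 0.00723% lower and 0.00723% at the study's threshold, with 1 unadjusted p under 0.05. DESeq2 also called 0 of the 32 in both lines. In compound cells 0 genes were higher and 2 lower, against 1.53% and 2.1% of all genes, and 0 at the study's threshold, against 1.31%. SCD was lower (log2 -0.71 ± 0.11 (SE), adjusted p = 0.0171), with all 3 libraries below the WT range given above. STARD4 was lower too, with 37.3, 31.3 and 31.8 CPM against 51.6, 46.5 and 67.5 CPM in WT cells (log2 -0.73 ± 0.15 (SE), adjusted p = 0.0393). Leaving out WT replicate 3, with the negative GC trend, gave 18 genes past the test here, and leaving out any other library 0 or 1. The shares of all genes above belong to the fit with every library. The share in the fit with 18 genes is not given, so that count does not set the list apart from all genes.

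At day 4 the same comparison, with the same 3 WT libraries in each, asks how the lines stood after loss of UHRF1, DNMT1 or both. UHRF1-AID cells had 1 gene higher and 4 lower, against 10.9% and 6.57% of all genes. DNMT1-AID cells had 0 higher and 7 lower, against 5.02% and 2.93%, and compound cells 4 higher and 11 lower, against 20.4% and 17.8%. At the study's threshold 0, 0 and 1 genes passed, against 6.99%, 2.57% and 11.7% of all genes. Without 1 library the number in DNMT1-AID cells ran from 0, without WT replicate 2, to 9, and in UHRF1-AID cells from 2, without WT replicate 1 or 2 or UHRF1-AID replicate 3, to 11, without UHRF1-AID replicate 2. In DNMT1-AID cells it was also 2 without DNMT1-AID replicate 3 and 3 without DNMT1-AID replicate 1 or WT replicate 1. In compound cells it ran from 12 to 17. Of the 5, 7 and 15 calls in the 3 lines, 1 (SCD), 0 and 11 held whichever 1 library was left out.

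SCD had the smallest p of the set in UHRF1-AID and compound cells. Against the WT libraries given above, it was lower in UHRF1-AID (log2 -0.86 ± 0.10 (SE), adjusted p = 0.000739) and compound cells (log2 -1.41 ± 0.10 (SE), adjusted p = 7.49e-10), with no overlap, and both calls held without any 1 library. In DNMT1-AID cells the difference was -0.39 ± 0.14 (SE), adjusted p = 0.119. ELOVL6 was lower in compound cells (log2 -0.89 ± 0.11 (SE), adjusted p = 2.37e-06), against -0.18 ± 0.12 (SE) in UHRF1-AID and -0.01 ± 0.11 (SE) in DNMT1-AID cells. FADS1 was lower in DNMT1-AID (log2 -0.52 ± 0.10 (SE), adjusted p = 0.00538) and compound cells (log2 -0.75 ± 0.10 (SE), adjusted p = 9.75e-06), and its difference in UHRF1-AID cells was -0.33 ± 0.12 (SE), adjusted p = 0.0898. ACACA (log2 -0.53) and FADS2 (log2 -0.54) were lower and AACS higher (log2 0.38) in compound cells.

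INSIG1 and CYP51A1 were lower than in WT in all 3 tagged lines. INSIG1 differed by -0.69, -0.57 and -0.65 on the log2 scale (adjusted p = 0.0125, 0.0188 and 0.000216) in UHRF1-AID, DNMT1-AID and compound cells. With 1 library dropped, the INSIG1 call passed in 3 of 6 fits for UHRF1-AID, 2 of 6 for DNMT1-AID and 6 of 6 for compound cells, and for DNMT1-AID it was also lost in 1 fit of all libraries. The 3 WT libraries lay above all 9 libraries of the tagged lines. CYP51A1 differed by -0.84, -0.48 and -0.56, and its call in DNMT1-AID cells (adjusted p = 0.0497) was lost in 11 of the alternatives tried. It stood at 17.5, 13.6 and 15.1 CPM in UHRF1-AID cells.

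In UHRF1-AID cells ACAT2 was also lower (log2 -0.75) and LSS higher, with 61.9, 59.2 and 72.1 CPM against 41.1, 49.2 and 40.2 CPM (log2 0.56 ± 0.13 (SE), adjusted p = 0.0166). In DNMT1-AID cells PMVK, the phosphomevalonate kinase, had 39.4, 32 and 40.8 CPM against 53.9, 59.9 and 49.6 CPM (log2 -0.54 ± 0.12 (SE), adjusted p = 0.0149). FDPS had 60.3, 54.2 and 54.4 CPM against 84.9, 84.6 and 66.9 CPM (log2 -0.48 ± 0.11 (SE), adjusted p = 0.016). Both genes lay below WT in every library of that line, as INSIG1 did, and DHCR7 (log2 -0.41) and MVK (log2 -0.49) were lower as well. The DHCR7 and MVK calls (adjusted p = 0.0352 and 0.049) each passed in 2 of 6 leave-one-out fits. They passed in 6 and 4 of the 8 other alternatives. In compound cells HMGCS1 (log2 -0.47), FDPS (log2 -0.33), DHCR7 (log2 -0.48) and SREBF2 (log2 -0.41) were lower. IDI1 (log2 0.42), FDFT1 (log2 0.35) and LSS (log2 0.43) were higher there. SREBF1 did not pass in any line at day 4, with differences of 0.17 ± 0.18 (SE), 0.72 ± 0.21 (SE) and 0.45 ± 0.17 (SE).

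**Figure D4:**
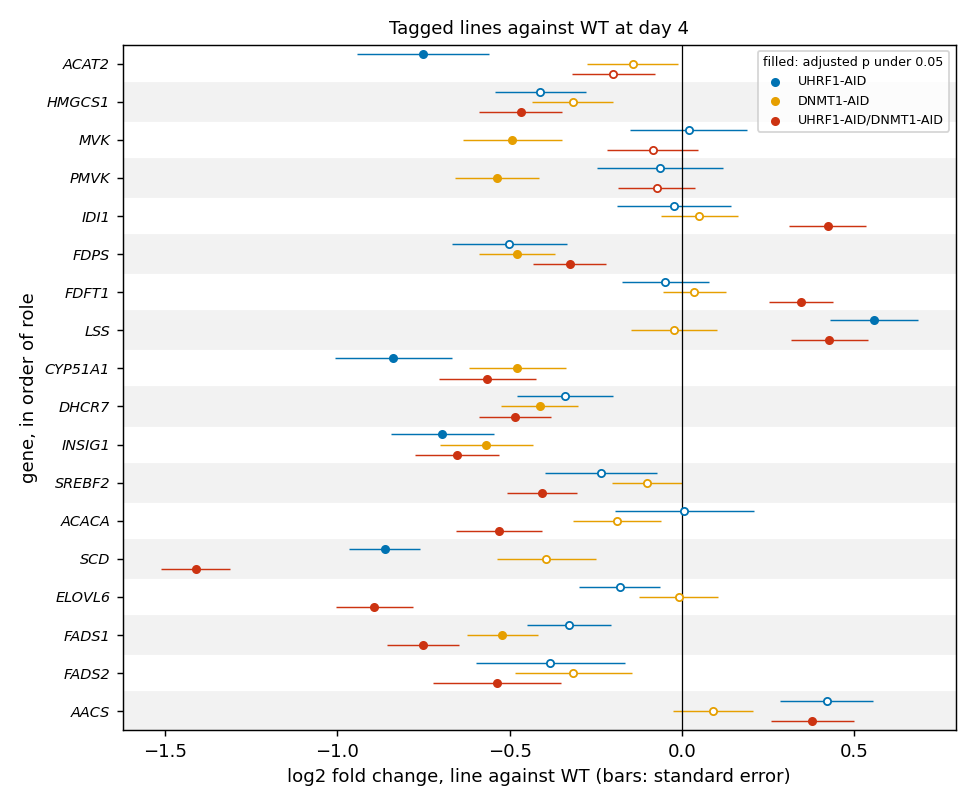
Log2 fold change of each tagged line against WT at day 4 for the genes that passed in at least 1 line, ordered by role. Points are fitted values, bars are standard errors, and filled points passed at an adjusted p under 0.05, with the same 3 WT libraries behind all 3 lines. SCD lay at -0.86 in UHRF1-AID and -1.41 in compound cells.

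Whether the day effect itself differed from that of WT cells was tested in fits of 12 libraries. In UHRF1-AID cells 0 genes moved more upward and 1 more downward, against 2.59% and 1.02% of all genes. That gene was SCD, whose day effect differed from that of WT by -0.73 ± 0.14 (SE) on the log2 scale (adjusted p = 0.0141). WT cells change folder between the days and UHRF1-AID cells do not, so this difference cannot be told apart from the folder, while in the other 2 fits both lines change folder. In DNMT1-AID cells 0 of the 32 passed, against 0.139% and 0.0139%, with 7 at an unadjusted p under 0.05 in edgeR and 0 called by DESeq2. In compound cells 1 passed upward and 3 downward, against 6.14% and 9.12%. SCD (log2 -0.75 ± 0.14 (SE), adjusted p = 0.00259), ELOVL6 (log2 -0.65 ± 0.12 (SE), adjusted p = 0.00278) and FADS1 (log2 -0.73 ± 0.13 (SE), adjusted p = 0.0025) fell further than in WT cells, and these calls held without any 1 of the 12 libraries. Without WT replicate 3 of day 0, 9 genes passed in this line, 1 in DNMT1-AID and 2 in UHRF1-AID cells. The SCD call in UHRF1-AID cells was lost without UHRF1-AID replicate 3 of day 0 (log2 -0.67, adjusted p = 0.053) and with the replicate number as a block (log2 -0.73, adjusted p = 0.074). INSIG2, which fell in WT cells and changed by 0.04 in compound cells, differed by 0.66 ± 0.18 (SE) (adjusted p = 0.0189), and this call passed in 10 of 12 leave-one-out fits, lost without compound replicate 3 of day 0 or replicate 1 of day 4. At the study's threshold 0 genes passed in each of the 3 fits, against 2.27%, 0.139% and 5.41% of all genes. INSIG1 did not pass here, with differences of -0.60 ± 0.26 (SE), -0.65 ± 0.25 (SE) and -0.48 ± 0.24 (SE) and adjusted p of 0.239, 0.322 and 0.201. For SREBF1 the differences were 0.13 ± 0.30 (SE), 1.09 ± 0.34 (SE) and 0.53 ± 0.30 (SE), none past the test.

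A further 28 genes of sterol transport, SREBP processing, LXR response and fatty acid handling were followed, of which 27 could be tested. Their calls come from the main fits only and were not checked in the alternatives or with 1 library left out. From day 0 to day 4, 10 rose and 1 fell in WT cells, 13 rose and 2 fell in UHRF1-AID cells, 10 rose and 4 fell in DNMT1-AID cells, and 17 rose and 3 fell in compound cells. In the order of these lines, 17.7%, 26.5%, 19.5% and 35.2% of all genes rose, while 17.8%, 22.9%, 20.8% and 32.5% fell. The LXR targets ABCG1 and MYLIP rose most in each line. ABCG1, a cholesterol efflux pump, stood at 2.59, 4.2 and 3.49 CPM in WT cells at day 0 and at 12.8, 9.75 and 9.86 CPM at day 4 (log2 1.66 ± 0.22 (SE), adjusted p = 0.000841). UHRF1-AID cells went from 5.9, 3.66 and 3.67 to 36.9, 22.1 and 21.5 CPM (log2 2.63 ± 0.28 (SE), adjusted p = 0.000105). It rose by 1.61 in DNMT1-AID and 2.37 in compound cells, and no day 4 library of any line overlapped day 0.

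MYLIP, a ubiquitin ligase that LXR induces to remove lipoprotein receptors, rose from 9.36, 8.6 and 8.73 to 19, 19.9 and 16.9 CPM in WT cells (log2 1.06 ± 0.14 (SE), adjusted p = 0.000745). UHRF1-AID cells went from 5.8, 9.02 and 9.25 to 37.5, 35.5 and 33.1 CPM (log2 2.16 ± 0.19 (SE), adjusted p = 3.94e-05), and compound cells from 8.37, 11.1 and 9.44 to 41.7, 43.8 and 35.9 CPM (log2 2.11 ± 0.12 (SE), adjusted p = 3.5e-11). The tagged lines all lay above WT at day 4, by 0.92, 0.63 and 1.14 on the log2 scale in UHRF1-AID, DNMT1-AID and compound cells. Its day effect exceeded that of WT in UHRF1-AID (log2 1.06 ± 0.23 (SE), adjusted p = 0.026) and compound cells (log2 1.00 ± 0.18 (SE), adjusted p = 0.0023). LPCAT3, which remodels phospholipids toward polyunsaturated chains, went from 15.5, 18.9 and 20.4 to 47.7, 43.3 and 47.7 CPM in compound cells (log2 1.39 ± 0.10 (SE), adjusted p = 1.5e-09). That exceeded the WT day effect by 1.07 ± 0.16 (SE) (adjusted p = 0.000645), and it rose in UHRF1-AID (log2 0.70) and DNMT1-AID cells (log2 0.57) too.

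The remaining LXR genes were mixed. ABCA1, the other efflux pump, was low, with 1.15, 2.41 and 1.14 CPM in WT and 7.45, 3.81 and 6.63 CPM in UHRF1-AID cells at day 4 (log2 1.91 ± 0.37 (SE), adjusted p = 0.00719). It was higher in compound cells as well (log2 1.13 ± 0.33 (SE), adjusted p = 0.00922), and between the days it passed in 1 line, UHRF1-AID (log2 0.87 ± 0.30 (SE), adjusted p = 0.034). The receptor NR1H2 rose in all 4 lines by 0.45 to 0.87, and NR1H3 passed in none of them and was lower than WT at day 4 in UHRF1-AID (log2 -0.68) and compound cells (log2 -0.61). ABCG1 was higher than WT at day 4 in UHRF1-AID (log2 1.30) and compound cells (log2 1.11).

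**Figure D5:**
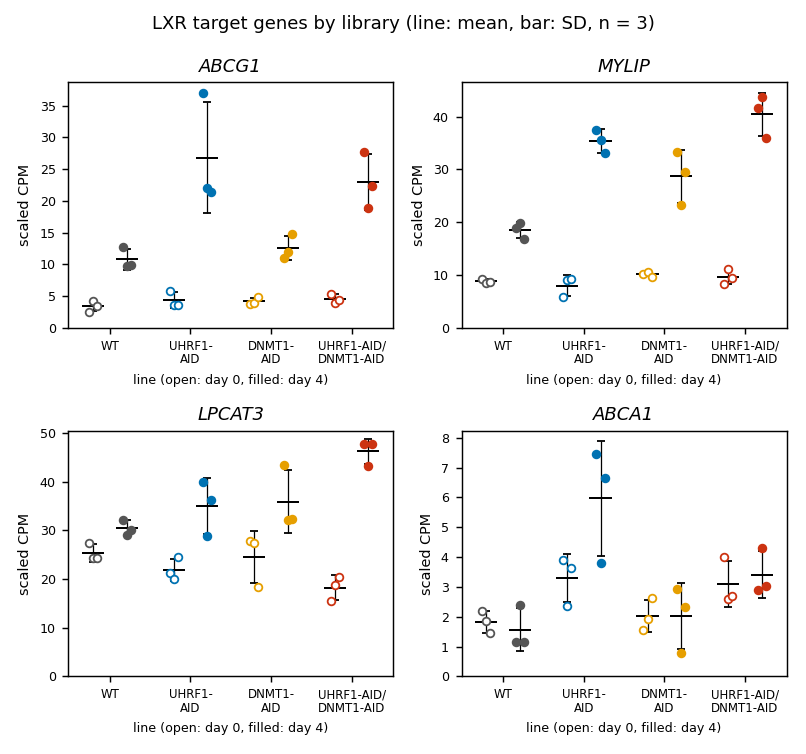
Scaled CPM of 4 LXR target genes in each library of the 4 lines, at day 0 (open) and day 4 (filled), with the mean and SD of 3 libraries. MYLIP lay between 16.9 and 19.9 CPM in WT cells at day 4 and between 33.1 and 43.8 CPM in UHRF1-AID and compound cells.

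Of the genes of fatty acid handling, the elongases ELOVL1 (0.62 to 0.92) and ELOVL7 (0.41 to 0.87) and the dehydratase HACD3 (0.48 to 0.66) rose in all 4 lines on the log2 scale, while LPIN1, a phosphatidate phosphatase, fell in all 4 (-1.02 to -0.53). SCD5, another stearoyl-CoA desaturase, rose by 0.61, 0.67 and 0.54 in WT, UHRF1-AID and compound cells, 2 of them the lines in which SCD fell. ACSS2, which makes acetyl-CoA from acetate, rose in the same 3 lines by 0.44, 0.49 and 0.70. MLXIPL, a glucose-responsive activator of lipogenic genes, rose in DNMT1-AID (log2 1.31) and compound cells (log2 0.78), and stood at 5.25, 5.71 and 12.7 CPM in DNMT1-AID cells at day 0, the libraries low in FASN being low here too. ELOVL5 (log2 -0.38) and ME1 (log2 -0.35) fell in DNMT1-AID cells, and TECR (log2 0.18) and HSD17B12 (log2 0.39), both of the elongation cycle, rose in compound cells.

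Of 5 sterol trafficking genes, 4 rose and 1 fell in compound cells, against 35.2% and 32.5% of all genes. In WT cells 0 of the 5 passed in edgeR, against 17.7% and 17.8%, and 4 had an unadjusted p under 0.05. NPC1 (log2 0.66), which exports cholesterol from lysosomes, rose in compound cells, NPC2 there (log2 0.66) and in DNMT1-AID cells (log2 0.46), and SOAT1, which esterifies cholesterol for storage, in UHRF1-AID (log2 0.57) and compound cells (log2 0.75). STARD3, which moves cholesterol to endosomes, rose in the same lines by 0.40 and 0.25. TMEM97, a binding partner of NPC1, fell in the 3 tagged lines, with log2 changes of -1.03, -0.53 and -0.92. The SREBP protease MBTPS2 rose in WT (log2 0.67), DNMT1-AID (log2 0.52) and compound cells (log2 0.33), and MBTPS1 in UHRF1-AID cells (log2 0.57). DHDDS, of dolichol synthesis, rose in WT cells (log2 0.34) and GGPS1, which makes geranylgeranyl diphosphate, fell in compound cells (log2 -0.40).

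The same 27 genes were compared with WT. At day 0, NPC1 (log2 -0.91 ± 0.10 (SE), adjusted p = 0.00787) and ACSS2 (log2 -0.71 ± 0.13 (SE), adjusted p = 0.034) were lower in compound cells, and 0 passed in the other lines. At day 4, UHRF1-AID cells had 3 higher and 2 lower, DNMT1-AID cells 1 and 1, and compound cells 5 and 8. In the order of these lines, 10.9%, 5.02% and 20.4% of all genes were higher, while 6.57%, 2.93% and 17.8% were lower. MBTPS2 was lower in UHRF1-AID (log2 -0.64) and compound cells (log2 -0.71), and NPC1 in DNMT1-AID cells (log2 -0.41). In compound cells DHDDS (-0.65), ACSS2 (-0.46), GGPS1 (-0.37), MBTPS1 (-0.35), ELOVL1 (-0.34) and STARD3 (-0.28) were also lower on the log2 scale, and TECR (0.46) and LPCAT3 (0.62) higher. The day effect there exceeded that of WT for NPC1 (log2 0.64 ± 0.13 (SE), adjusted p = 0.00404), and was below it for DHDDS (log2 -0.60 ± 0.14 (SE), adjusted p = 0.0121) and TMEM97 (log2 -0.54 ± 0.17 (SE), adjusted p = 0.0447).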

How the data were processed

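RNA-seq of HCT116 cells (WT, 2 lines with 1 tag and the compound line) at day 0 and day 4 of auxin was used, with 3 libraries per group. The authors made poly(A) libraries with a NEBNext Ultra RNA kit, trimmed reads (Trimmomatic), aligned to hg38 (STAR) and counted per gene (featureCounts) (tool names and build also in the submitters' processing notes). They deposited raw counts per gene, 1 library per table. Strand setting and treatment of multimapping reads are not given in the sources used here. Spike-ins were left out.

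From the deposited counts, edgeR 4.0.16 in R 4.3.3 was used, with filterByExpr, TMM scaling and the robust quasi-likelihood test within the libraries compared, followed by Benjamini-Hochberg adjustment over all genes tested. There were 4 comparisons of day 4 with day 0, 6 of a line with WT and 3 of the day effect with that of WT. Standard errors were taken from the fold change and its F statistic. The study reports 3 biological replicates for RNA-seq, and names different clones as the replicates of each tagged line. The labels do not link clones to libraries. WT libraries may share a culture, and p-values then measure only the spread between these libraries. Depth limits precision less than the spread between replicates, since all 24 pairs of replicates differed beyond sampling noise (chi-square per degree of freedom 3.71 to 64.3).

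Groups came from the labels. All members are named by role, library values are given for SREBF1, SREBF2 and INSIG1 and for up to 4 members with the smallest p in each comparison, and the FASN and LXR values were added after they were seen. The members and lists were chosen with earlier results of these data known, and 4 further hand-listed genes are not reported here. Alternatives were the study's fold threshold, RLE scaling, no filter, a minimum of 10 counts per library, 1 fit of all libraries, DESeq2 1.42.0, a replicate block, offsets for gene length and (added after seeing the data) GC content, and each library left out in turn. They were read out for the 32 members, UHRF1 and DNMT1, and not for the 28 further genes. Deviations of same-numbered libraries correlated by 0.228, 0.143 and 0.122 between day 0 and day 4 of UHRF1-AID cells, and not all over 0.1 in the other 9 pairs of groups (lowest -0.622), so the numbers were taken to pair only the former. Plots used matplotlib 3.10.9 and pandas 2.3.3 in Python 3.11.15.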

Additional observations from a re-analysis of the deposited data

Results flagged for a closer look

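The day effect differed from that of WT cells by edgeR's test of the difference in 1 gene of UHRF1-AID cells, SCD (log2 -0.73, adjusted p = 0.0141), and in 4 genes of compound cells. These were SCD (log2 -0.75), FADS1 (log2 -0.73), ELOVL6 (log2 -0.65) and INSIG2 (log2 0.66), and the first 3 fell further than in WT cells while INSIG2 fell in WT cells and changed by 0.04 in this line. The SCD call in UHRF1-AID cells was lost with the replicate block (log2 -0.73, adjusted p = 0.074) and without UHRF1-AID replicate 3 of day 0 (log2 -0.67, adjusted p = 0.053), and it cannot be told apart from the alignment folder, which changes between the days in WT cells but not in UHRF1-AID cells. The INSIG2 call was lost in 2 of 12 leave-one-out fits. In all 9 libraries of the 3 groups of day 4 from WT, DNMT1-AID and compound cells, spike-in sequences took between 0.891% and 1.65% of counts, and 0 in the other 15 libraries, WT at day 0 among them.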

How the results depend on the processing

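At the study's threshold, which adds an absolute log2 change over 1, the members past the test numbered 1, 3, 3 and 7 between days in WT, UHRF1-AID, DNMT1-AID and compound cells, 0 in compound cells against WT at day 0, 0, 0 and 1 against WT at day 4, and 0 in the day effects minus that of WT. Without a filter, 4 passed in compound cells against WT at day 0, 8 in UHRF1-AID against WT at day 4, and 3 and 2 in the day effects of UHRF1-AID and DNMT1-AID cells minus that of WT. DESeq2 gave 4 in compound cells against WT at day 0. In 1 fit of all libraries 11 passed in UHRF1-AID and 3 in DNMT1-AID against WT at day 4, 4 of the latter with at least 10 counts in every library, and with a gene length offset 8 in the former. The cause was not tested. Shares of all genes are not given for the alternatives of this section, nor for counts at an unadjusted p. Apart from those at the study's threshold, such counts thus do not set the members apart from all genes.

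With the replicate block 1 passed in compound cells against WT at day 0 and 0 in the day effect of UHRF1-AID minus that of WT, where SCD kept its log2 change of -0.73. Between days of UHRF1-AID cells, the 1 paired comparison, 22 passed against 19. The block shifted the other counts by less than 1.5 times. Leaving out 1 library gave 9 to 21, 12 to 20, 10 to 18 and 22 to 25 between days in the 4 lines, and 0 to 0, 0 to 0 and 0 to 18 against WT at day 0 in UHRF1-AID, DNMT1-AID and compound cells. It gave 2 to 11, 0 to 9 and 12 to 17 against WT at day 4, and 0 to 2, 0 to 1 and 3 to 9 for the day effects. Without a filter the median of all genes moved by over 0.1 on the log2 scale in 3 comparisons. No called member changed direction under these alternatives.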
